A study of Mus musculus with 12 samples.

Results

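Dexmedetomidine (Dex) was compared with saline in medial prefrontal cortex, asking which genes differed in the same direction in prelimbic (PL) and in infralimbic (IL) tissue. The comparison set all 6 Dex libraries against all 6 saline libraries, with region as an additive term, which is all 12 libraries of the series, and it covered the 20015 expressed genes of 55421 in the deposited table. The mice were wild-type male C57BL/6, 10 to 12 weeks old, and every group, controls included, had been trained with 3 pairings of a 120 s tone and a 0.7 mA foot shock. They received Dex at 40 µg/kg intraperitoneally, in 10 ml/kg, or the same volume of normal saline, and tissue was taken 2 h after training. Region and treatment thus form 4 groups of 3 libraries, called PL saline, IL saline, PL Dex and IL Dex. PolyA RNA was sequenced. The extraction text of the labels names prelimbic tissue for every sample, whereas 6 titles name IL, and the titles were followed. The labels do not say whether the libraries of a group came from separate mice, nor whether PL and IL libraries with one number came from one mouse, so the spread behind each p-value may be technical.

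Dex is a sedative that activates alpha2 adrenergic receptors. These receptors couple to inhibitory Gi/o proteins, lower cyclic AMP, open inwardly rectifying potassium channels, and on noradrenergic terminals reduce the release of noradrenaline. Cyclic AMP and calcium signals drive the immediate early genes, which neurons switch on within minutes of strong activity and which are used to trace cells engaged by fear learning. PL and IL are neighbouring areas of rodent prefrontal cortex, known for supporting the expression and the extinction of learned fear.

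In PL the libraries held 6867249 to 8847876 counts (saline) and 6853832 to 7912150 counts (Dex). In IL they held 10603069 to 16530596 counts (saline) and 5419187 to 10874464 counts (Dex), so depth moved with the drug there. Over the 12 libraries, markers of cortical excitatory neurons (Slc17a7, 614 to 1210 CPM, the count scaled to library size), inhibitory neurons (Gad1, 204 to 542), astrocytes (Slc1a2, 4430 to 6200) and myelin (Mbp, 720 to 1830) were present. The choroid plexus gene Ttr was at 0 to 2.32 CPM. The summed level of 18 striatal neuron markers was 675 to 1420 CPM in PL saline and 675 to 885 CPM in PL Dex. Of the PL saline libraries, library 1 was at 1420 CPM and the others at 675 and 682 CPM. In IL the sum was 1920 to 2360 CPM with saline and 1870 to 2810 CPM with Dex. On the first principal component (35.8% of the variance) PL Dex library 3 scored 48.8, beside PL saline libraries 2 and 3 at 46.9 and 48.4. The other PL libraries scored 17.9 to 22.5. A library's dependence of level on gene GC content also moved with the drug in PL, with slopes of -0.325 to -0.0823 log2 units per 10% GC in saline and -0.0793 to 0.126 with Dex. In IL the slopes overlapped, at 0.0339 to 0.147 and -0.00476 to 0.201. The part of GC content and depth in the results was not tested, and values after a GC correction are given for most of the lists and for some of the genes named.

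Several short noncoding RNAs were lower with Dex in both regions, among them the transcript with the smallest p of the comparison. Gm25107 and Gm24616 are annotated as small nucleolar RNAs, a class that guides chemical modification of other RNAs. They lie inside Lrch2 and Eif4a2 respectively, on the same strand as those genes, so their counts can include reads of the host transcript. Rny1 and Rny3 are the mouse Y RNAs, small RNAs known to bind the Ro60 protein, and they are neighbours on chromosome 6. All 4 were picked after their values were seen, and the Y RNAs also belong to the list of structural noncoding RNAs. Ranked by p over all genes tested, Gm25107 was at 1, Gm24616 at 3, Rny3 at 10 and Rny1 at 59. Their sequences are shown because all 4 had an unadjusted p under 0.05 in each region, and they are printed 5′ to 3′ from the GENCODE transcripts on GRCm38. In the first 2, capitals mark the ACA nearest the 3′ end, which stands 3 bases from the end in Gm25107 and 2 bases from it in Gm24616. An ACA near the end is a feature of the H/ACA class of small nucleolar RNA, and here it is a match of letters only. In the Y RNAs, capitals mark the longest run of bases the pair shares, which is 12 bases.
Gm25107 (chrX:147484293-147484421, minus strand): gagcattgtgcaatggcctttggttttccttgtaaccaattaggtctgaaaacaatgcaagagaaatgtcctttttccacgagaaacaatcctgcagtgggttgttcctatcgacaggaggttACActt
Gm24616 (chr16:23111617-23111755, plus strand): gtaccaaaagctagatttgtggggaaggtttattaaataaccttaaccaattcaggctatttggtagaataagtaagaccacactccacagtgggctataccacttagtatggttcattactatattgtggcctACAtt
Rny1 (chr6:47788069-47788180, minus strand): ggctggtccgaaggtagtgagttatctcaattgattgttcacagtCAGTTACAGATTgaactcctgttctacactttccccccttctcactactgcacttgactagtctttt
Rny3 (chr6:47781624-47781725, plus strand): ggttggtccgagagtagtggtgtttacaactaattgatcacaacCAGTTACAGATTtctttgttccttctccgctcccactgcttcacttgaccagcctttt

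No gene passed an adjusted p of 0.05 in the common comparison, with edgeR's quasi-likelihood test over the 20015 genes (0% called, 0 genes). At an unadjusted p under 0.05 there were 1110 genes (5.55% of those tested), of which 486 were higher with Dex (2.43%) and 624 lower (3.12%). DESeq2 called 2 transcripts, Gm25107 and Gm37051, both lower. The direction of the effect matched between regions for fewer genes than it differed. It was higher with Dex in both regions for 5041 genes (25.2%), lower in both for 4726 (23.6%) and opposite for 10248 (51.2%). Across the 13833 genes above a floor of 2 on the log2 CPM scale, the effects in PL and IL had a Spearman correlation of -0.03, and 0.02 after the GC correction. Genes are not independent replicates, so these values describe the libraries. The effects were spread more widely in PL (SD 0.284 on the log2 scale) than in IL (0.152). In PL alone 2784 genes (13.9%) had an unadjusted p under 0.05, and in IL alone 213 (1.06%). The precision set by depth was a 95% interval with a median width either side of 0.166 on the log2 scale for genes above 100 CPM, 0.265 for genes at 10 to 30 CPM and 0.923 for genes below 1 CPM.

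**Figure D1:**
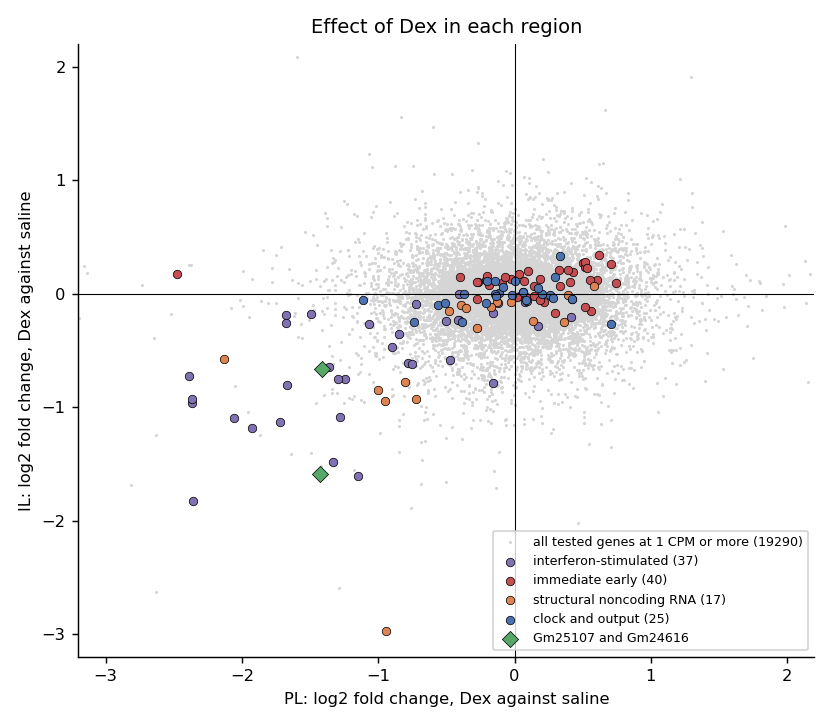
Log2 fold change of Dex against saline in PL (x axis) and IL (y axis) for 19290 tested genes at a mean of 1 CPM or more (grey), with members of 4 gene lists and 2 small nucleolar RNAs in colour; each point is a gene, and 3 libraries stand on each side of each contrast. The grey cloud is wider along the PL axis and has no slope, and the interferon-stimulated genes and structural RNAs lie mostly in the lower left.

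Few genes stood apart in both regions at once. An unadjusted p under 0.05 in PL and also in IL, with the same direction, was found for 25 genes: 3 were higher with Dex (0.015% of genes tested) and 22 lower (0.11%). A further 11 genes had such p-values with opposite directions. Of the 25 genes, 16 carry predicted or small RNA names and 9 are annotated as protein-coding. Gm9887 is counted in both of these classes, and the pseudogene Ppp1ccb in neither. Adding the batch number as a block raised the 25 genes to 38. In both regions all Dex libraries lay above all saline libraries for 46 genes (0.23%) and below them for 72 genes (0.36%).

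Gm25107 was the gene with the smallest p. Its level in PL was 17.0, 22.1 and 19.1 CPM with saline and 5.31, 6.24 and 10.3 CPM with Dex. In IL it was 8.37, 12.0 and 10.2 CPM with saline and 6.59, 6.45 and 6.27 CPM with Dex. Every Dex library was below every saline library of its region. The common log2 fold change was -1.05 (SE 0.177, 95% interval -1.42 to -0.68, edgeR adjusted p 0.137), a level 2.07-fold lower with Dex, and the within-region values were -1.41 in PL and -0.67 in IL. DESeq2 gave it an adjusted p of 0.000532, and over all alternatives its adjusted p ran from 7.76e-07 to 0.764. The log2 fold change stayed between -1.21 and -0.92.

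Rny3 was the most abundant of these RNAs. It stood at 408, 743 and 751 CPM in PL saline and 318, 215 and 419 CPM in PL Dex, and at 415, 328 and 277 CPM in IL saline and 179, 221 and 165 CPM in IL Dex. The IL groups did not overlap, and in PL 1 Dex library lay just above the lowest saline library. The common log2 fold change was -0.93 (SE 0.194, edgeR adjusted p 0.856), with -0.999 in PL and -0.85 in IL. Rny1 was at 361, 191 and 279 CPM in PL saline against 161, 93.3 and 174 CPM in PL Dex. Levels in IL were 198, 106 and 93.7 CPM with saline and 76.1, 78.2 and 52.9 CPM with Dex. Neither region's groups overlapped, and the log2 fold change was -0.95 in each region (common SE 0.244, edgeR adjusted p 0.856).

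Gm24616 was rare, at 1.52, 3.16 and 2.42 CPM in PL saline and 0.544, 1.16 and 0.949 CPM in PL Dex. The IL levels were 2.61, 1.73 and 1.31 CPM with saline and 0.534, 0.75 and 0.553 CPM with Dex, again with no overlap (common log2 fold change -1.50, SE 0.328, edgeR adjusted p 0.856). Gm37051, a transcript on chromosome 1 that the annotation lists as still to be tested by experiment, was picked after its values were seen and lies inside the adhesion receptor gene Adgrb3. It was 1.8-fold lower with Dex (log2 fold change -0.85, edgeR adjusted p 0.184, DESeq2 0.0037, range over the alternatives 3.96e-05 to 0.999). Corrected for GC content, the value was -0.61.

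Of 115 tested small nucleolar RNAs, 49 were lower in both regions (42.6%) and 20 higher in both (17.4%), against 23.6% and 25.2% of all genes tested, and their median common log2 fold change was -0.24 (all genes: 0.00; after the GC correction: -0.16). At an unadjusted p under 0.05, 22 of the 115 were lower (19.1% against 3.12% of all genes) and 0 higher, and edgeR called 0 at the adjusted threshold. Without both saline libraries numbered 3, 11 of 113 were lower at that p (9.73%) and 0 higher. Over all 19919 genes tested in that setting, 722 were lower and 898 higher (8.13% in either direction). Of 79 small nuclear RNAs, 24 were lower and 18 higher in both regions (median -0.07, and 0.00 in IL), and after the GC correction 21 were lower and 24 higher (median -0.02). Of the 44 RNAs of the miscellaneous class, which holds the Y RNAs, 16 were lower and 9 higher in both regions, with a median of -0.16 (-0.11 after the GC correction). Of the members picked after their values were seen, Snord13, which guides acetylation of ribosomal RNA, was at -1.51 (SE 0.384) and Snord49b at -1.45 (SE 0.442). In the list of abundant and structural noncoding RNAs, 13 of 17 were lower in both regions and 1, the paraspeckle RNA Neat1, was higher in both (log2 fold change 0.32). The median of the list was -0.24, and -0.23 after the GC correction. The signal recognition particle RNA Rn7s2 was at -0.79, and the ribonuclease P RNA Rpph1, which processes transfer RNA, at -0.83 (SE 0.575). These small RNAs are as a rule not polyadenylated, whereas the labels name polyA RNA as the material sequenced.

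**Figure D2:**
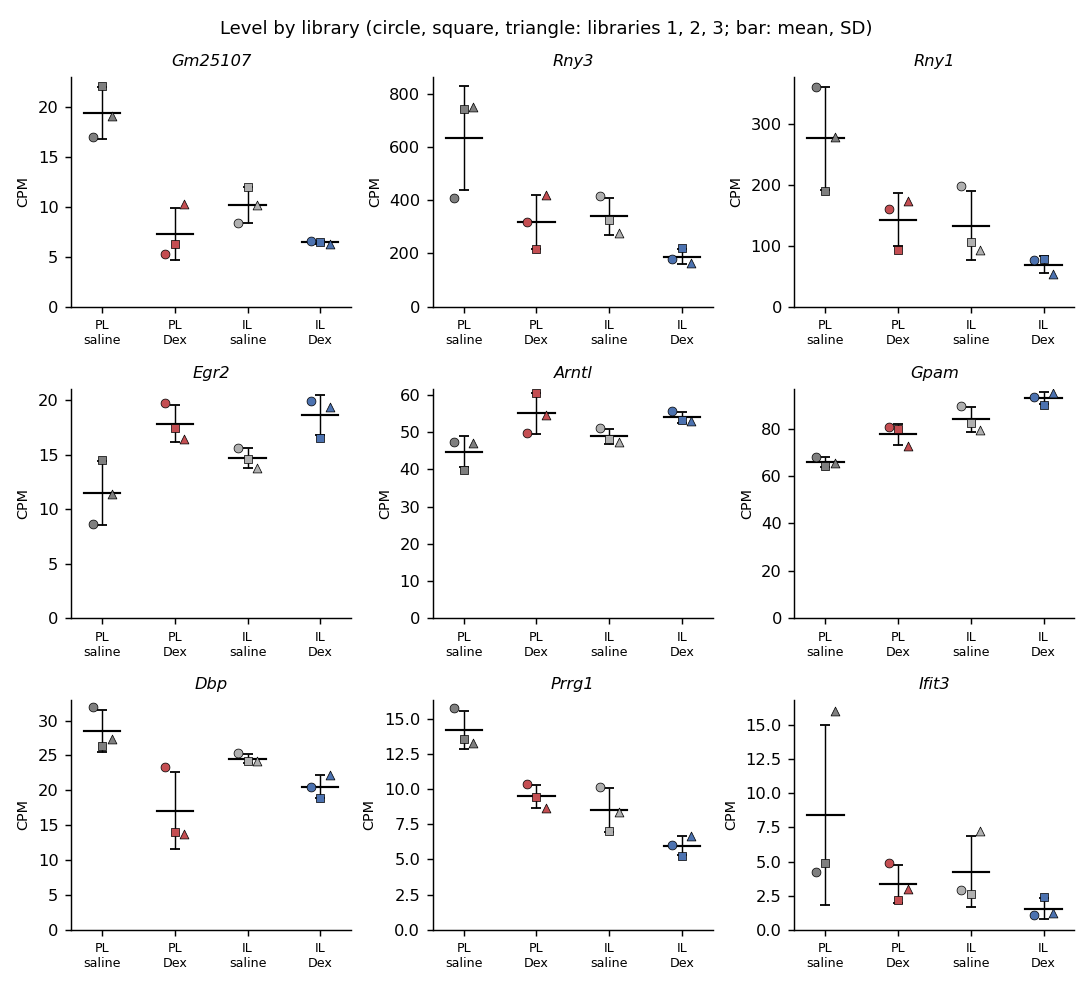
Level in CPM (y axis, from 0) of 9 genes in each of the 12 libraries, grouped by region and drug (x axis); bars show the mean and SD of 3 libraries, and circles, squares and triangles are libraries 1, 2 and 3. Gm25107 and Rny1 do not overlap between drug groups in either region, Egr2, Arntl and Gpam are higher with Dex in both regions, and the Ifit3 levels of saline library 3 stand above the others.

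Immediate early genes leaned higher with Dex in both regions, by small amounts. Of 40 tested members, 32 had a positive common log2 fold change, 20 were higher in both regions and 1, Klf6, was lower in both. The median was 0.11, with 0.20 in PL and 0.11 in IL, against 0.00 over all genes, and it was 0.09 after the GC correction. With that correction 28 members were positive, 21 were higher in both regions and 4 lower in both. At an unadjusted p under 0.05, 11 members were higher (27.5%, against 2.43% of all genes higher) and 0 lower. After the GC correction 8 were higher, against 369 of the 20015 genes. EdgeR called 0 at the adjusted threshold. The 11 were Fos, Fosb, Jun, Egr2, Egr4, Nr4a1, Dusp1, Btg2, Gadd45b, Sik1 and Arl4d. Earlier results of these data had already shown this direction in each region.

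Egr2, a zinc finger transcription factor, was at 8.65, 14.5 and 11.3 CPM in PL saline and 19.7, 17.4 and 16.4 CPM in PL Dex. In IL it was at 15.7, 14.6 and 13.8 CPM with saline and 19.9, 16.5 and 19.4 CPM with Dex. Every Dex library was above every saline library of its region, and the common log2 fold change was 0.48 (SE 0.127, 95% interval 0.21 to 0.74, edgeR adjusted p 0.856). Fos, the classical activity marker, was at 24.6, 22.5 and 24.3 CPM in PL saline and 42.3, 33.4 and 32.9 CPM in PL Dex. Its IL levels overlapped, at 27.5, 35.6 and 32.7 CPM with saline and 34.2, 32.6 and 37.2 CPM with Dex, and its log2 fold change was 0.61 in PL and 0.12 in IL. Dusp1, a phosphatase that switches off MAP kinases, was higher in all 3 IL Dex libraries (30.8, 34.7 and 35.3 CPM) than in the IL saline libraries (25.5, 27.8 and 29.7 CPM). In PL its groups overlapped, at 26.1, 35.3 and 46.2 CPM with Dex and 20.6, 23.8 and 30.6 CPM with saline. Btg2, an antiproliferative cofactor, had log2 fold changes of 0.75 in PL and 0.09 in IL. Other members, Arc at 0.12, Egr1 at 0.00, Bdnf at -0.03 and Homer1 at -0.05, had no unadjusted p under 0.05. In a separate list of plasticity and kinase genes, 13 of 24 were higher in both regions and 1 lower, with a median of 0.08 (0.04 after the GC correction).

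Libraries with one number resembled each other in these genes. The mean of the 40 members, in log2 CPM centred on each gene's own average, was highest in library 3 of each of the 4 groups. Within a region and number, Dex exceeded saline in 6 of 6 pairs. The differences were 0.271, 0.214 and 0.1 in PL and 0.0554, 0.0726 and 0.103 in IL. Leaving out both saline libraries numbered 3 takes away the highest saline value of each region, which by itself enlarges the difference. The median of the list was then 0.24, with 27 of 39 tested members higher in both regions and 0 lower. Without PL Dex library 3 alone, the median was 0.08, with 17 members higher in both regions and 2 lower.

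**Figure D3:**
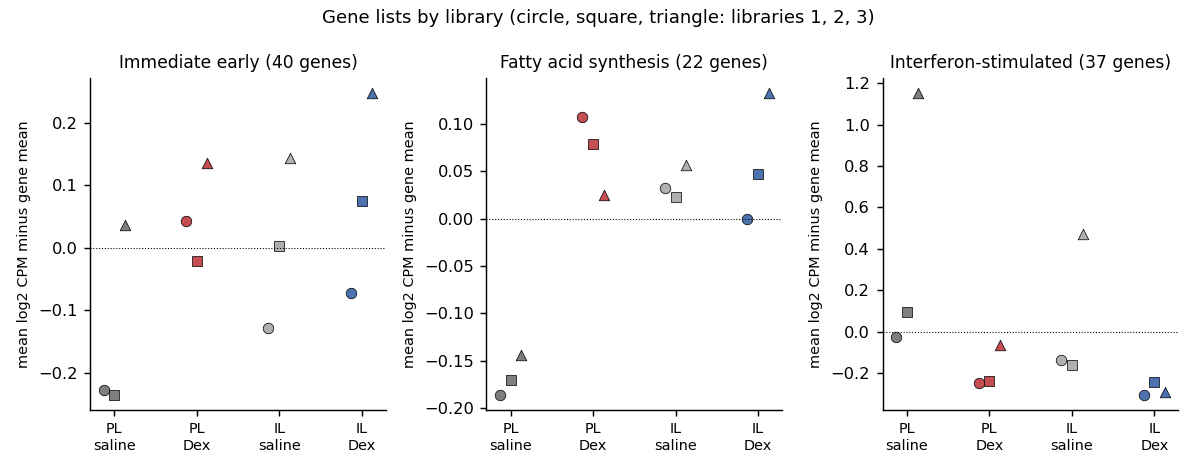
Mean over the members of log2 CPM centred on each gene's own average (y axis) for 3 gene lists, by region and drug (x axis); circles, squares and triangles are libraries 1, 2 and 3. Immediate early genes are highest in library 3 of each group, fatty acid genes separate by drug in PL, and the interferon-stimulated genes are high in saline library 3 of both regions (1.15 in PL and 0.473 in IL).

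Promoters of immediate early genes often carry the cyclic AMP response element, the site of the factor CREB, and the windows shown are those of the 3 members with an unadjusted p under 0.05 whose promoter holds the full element TGACGTCA. They are taken from the RefSeq promoter windows (250 bases before to 50 after the start, GRCm38.p6), with 25 bases on each side of the element, which is in capitals and reads the same on both strands. Windows were found for 12176 of the 20015 genes tested.
Dusp1 (chr17:26508583-26508640, minus strand): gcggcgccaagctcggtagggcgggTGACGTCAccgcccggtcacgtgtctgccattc
Btg2 (chr1:134079289-134079346, minus strand): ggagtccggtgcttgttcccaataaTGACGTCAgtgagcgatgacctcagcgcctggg
Arl4d (chr11:101665490-101665547, plus strand): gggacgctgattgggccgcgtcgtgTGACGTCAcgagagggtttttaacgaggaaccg
The element starts at position -143 from the transcription start in Dusp1, -166 in Btg2 and -26 in Arl4d. It was found in 5 of 45 windows of the list (11.1%) and in 433 of 15593 windows of all tested genes (2.78%). Its core TGACG, on either strand and contained in the full element, was in 26 of the 45 windows (57.8%) and in 28.8% of all windows. Among genes with an unadjusted p under 0.05, the full element was in 2.59% of the windows of those higher with Dex and in 5.43% of those lower. These are matches of letters in a window, not measured sites.

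Genes of fatty acid synthesis were mostly higher with Dex. Of 22 tested members 20 were positive in the common comparison, 13 were higher in both regions and 0 lower in both, and the median was 0.13 (0.22 in PL, 0.05 in IL). After the GC correction the median was 0.07. At an unadjusted p under 0.05, 6 members were higher (27.3%, against 2.43% of all genes higher), or 4 after the GC correction, and edgeR called 0 at the adjusted threshold. Gpam, which starts glycerolipid synthesis, was the member whose levels separated in both regions. It was at 68.2, 64.2 and 65.5 CPM in PL saline against 80.5, 79.7 and 72.5 CPM in PL Dex. The IL levels were 89.6, 82.5 and 79.4 CPM with saline and 93.2, 90.0 and 95.0 CPM with Dex (common log2 fold change 0.19, SE 0.0707, edgeR adjusted p 0.856). Slc25a1, the mitochondrial citrate carrier, was at 0.44 in PL and 0.15 in IL, and its common value of 0.29 was 0.17 after the GC correction. Insig1, which retains the SREBP complex in the endoplasmic reticulum, was at 0.19 and 0.15.

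Srebf1, the transcription factor SREBP1 named in the series title, is a member of this list. Its log2 fold change was 0.76 in PL and 0.01 in IL, and the common value of 0.36 (SE 0.133, edgeR adjusted p 0.856) averages them. It was 0.23 after the GC correction. The interaction of region and drug had an adjusted p of 0.716. Phgdh, the first enzyme of serine synthesis and also in the title, had a common log2 fold change of 0.14 (SE 0.108), from 0.32 in PL and -0.01 in IL, and 0.03 after the GC correction. Of 14 genes of serine synthesis and one-carbon metabolism, 3 were higher in both regions and 3 lower in both.

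In the cholesterol list 13 of 23 members were higher in both regions and 2 lower in both (median 0.08, 0.10 in PL and 0.08 in IL; 0.04 after the GC correction). The GC correction left 10 higher in both regions, 3 lower in both and 4 at an unadjusted p under 0.05. Before it, the 5 members with an unadjusted p under 0.05 were all higher (21.7%, against 2.43% of all genes higher). Among them were Srebf2, the master regulator (0.41 in PL, 0.09 in IL; 0.16 in PL after the GC correction), the exporters Abca1 (0.32 and 0.10) and Abcg1 (0.23 and 0.07), and Cyp46a1, which clears cholesterol from neurons (0.32 and 0.09; 0.06 in PL after the GC correction). The common values of Abca1 and Abcg1 after that correction were 0.22 and 0.09. The synthesis enzyme genes Sqle and Cyp51 were both at -0.04. Of 32 genes of glucose, glycogen and lactate metabolism, 17 were higher in both regions and 1 lower, and the median of 0.09 was 0.03 after the GC correction. Gapdh, a glycolytic enzyme, was at 0.17 in PL and 0.20 in IL (common 0.18, SE 0.0774).

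The clock list showed single genes and no common direction. Of 25 members, 5 were higher in both regions and 10 lower in both, with a median of -0.01. Arntl, the core activator BMAL1, was at 47.4, 39.9 and 47.0 CPM in PL saline and 49.8, 60.7 and 54.8 CPM in PL Dex. Levels in IL were 51.1, 48.2 and 47.4 CPM with saline and 55.8, 53.3 and 53.1 CPM with Dex. It was the 1 clock gene at an unadjusted p under 0.05 that was higher, with no overlap in either region (log2 fold change 0.22, SE 0.082, edgeR adjusted p 0.856). Dbp, an output of the clock that BMAL1 activates, was lower without overlap in both regions. It was at 31.9, 26.4 and 27.3 CPM in PL saline and 23.4, 14.1 and 13.7 CPM in PL Dex, and at 25.3, 24.1 and 24.2 CPM in IL saline and 20.5, 18.9 and 22.1 CPM in IL Dex. Its common log2 fold change was -0.49 (SE 0.132, edgeR adjusted p 0.856), and -0.65 after the GC correction. Dbp overlaps Sphk2 on the other strand, and counting used no strand. Nr1d2, a repressor of Arntl, was at -0.56 in PL and -0.10 in IL. Bhlhe41, another repressor, was at -0.51 and -0.09, and Ciart, an inhibitor of BMAL1, at -0.38 and -0.25. The E-box CACGTG, to which BMAL1 binds, was in 6 of 29 promoter windows of the list (20.7%) and in 9.15% of all windows.

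Among the other genes with the same direction in both regions, Prrg1, a membrane protein gene with a Gla domain, was at 15.8, 13.6 and 13.3 CPM in PL saline and 10.3, 9.43 and 8.68 CPM in PL Dex. In IL it was at 10.2, 7.06 and 8.39 CPM with saline and 6.06, 5.25 and 6.64 CPM with Dex (common log2 fold change -0.54, SE 0.138, edgeR adjusted p 0.856). The groups did not overlap, and after the GC correction the value was -0.29. Casp8ap2, which takes part in histone gene transcription and apoptosis signalling, was at -0.37 in both regions. It was at 32.2, 36.2 and 30.4 against 22.3, 24.1 and 29.8 CPM in PL, and at 28.0, 24.9 and 24.6 against 18.2, 22.7 and 19.2 CPM in IL, saline first. Nsrp1, a splicing regulator, was at -0.44 in PL and -0.43 in IL, and Khdrbs2, a neuronal splicing regulator, at -0.50 and -0.41. The GC correction left the PL value of Casp8ap2 at -0.16, that of Nsrp1 at -0.30 and that of Khdrbs2 at -0.18, while their IL values were -0.37, -0.44 and -0.42. The kinase gene Rock1, which acts on the actin cytoskeleton, was at -0.48 and -0.18 (-0.24 in PL after the GC correction), and the RNA helicase gene Ddx10 at -0.52 and -0.27. None of these passed the adjusted threshold in edgeR (0.856 for each).

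On the higher side, Ppp1ccb was at 3.34, 4.68 and 2.05 CPM in PL saline and 7.21, 6.10 and 7.59 CPM in PL Dex. Levels in IL were 3.42, 3.53 and 3.99 CPM with saline and 7.13, 4.05 and 6.18 CPM with Dex. The groups did not overlap (common log2 fold change 0.84, SE 0.206, edgeR adjusted p 0.856). It is annotated as a transcribed processed pseudogene and resembles the phosphatase gene Ppp1cc, so the assignment of its reads is uncertain. Ninl, a centrosomal protein gene, was at 1.01 in PL and 0.50 in IL. The mitochondrial immune regulator Nlrx1 was at 1.11 and 0.39, and Wdr24, part of the GATOR2 complex that signals amino acids to mTORC1, at 0.62 and 0.33. Nlrx1 and Bend3, a chromatin repressor gene (0.70 and 0.26), did not overlap between drug groups in either region.

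The drug's own receptor gene differed little, and the lists of its partners held more genes higher in both regions than lower in both. Adra2a, the alpha2A receptor gene, was at 15.2, 9.96 and 11.9 CPM in PL saline and 13.9, 11.3 and 15.4 CPM in PL Dex. The IL levels were 24.6, 28.8 and 38.1 CPM with saline and 24.1, 30.5 and 49.5 CPM with Dex. The groups overlapped in both regions (common log2 fold change 0.18, SE 0.163, 95% interval -0.17 to 0.52, edgeR adjusted p 0.882), and the value was -0.01 without IL Dex library 3 and 0.07 after the GC correction. Of 31 genes for Gi/o proteins, adenylyl cyclases and cyclic AMP signalling, 15 were higher in both regions (48.4%) and 3 lower (9.68%). Among all genes tested the shares were 25.2% and 23.6%. The median of the list was 0.05, and 0.03 after the GC correction. Gnai2, an inhibitory G protein subunit, was at 0.27 in PL and 0.08 in IL, and Creb1 at -0.36 and -0.06. After the GC correction their PL values were 0.04 and -0.11. In the list of HCN and potassium channels 11 of 24 were higher in both regions (45.8%) and 1 lower (4.17%). The median was -0.01 in PL, where 12 were positive, and 0.12 in IL, where 22 were.

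Of the gene lists described here, interferon-stimulated genes had the median farthest from 0, and they were lower with Dex. This list of 45 genes was drawn up after Tnfsf10 and Ifit3 were seen among the leading genes, so its counts describe the data and support nothing. Of 37 tested members, 31 were lower in both regions (83.8% against 23.6% of all genes) and 0 higher in both. The median log2 fold change was -0.69, with -0.90 in PL and -0.47 in IL, and -0.66 after the GC correction. At an unadjusted p under 0.05, 17 members were lower (45.9%, against 3.12% of all genes lower) and 0 higher. EdgeR called 0 at the adjusted threshold. In bulk tissue, fewer cells of a type and less RNA per cell cannot be told apart.

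The values came mostly from the saline libraries numbered 3. The summed level of the 37 members was 208, 229 and 474 CPM in PL saline and 179, 201 and 201 CPM in PL Dex. In IL it was 178, 178 and 271 CPM with saline and 170, 171 and 162 CPM with Dex. Library 3 stood highest in the saline group of both regions, and the other saline libraries lay close to the Dex libraries. For 25 of the 37 genes (67.6%), the highest PL value was in PL saline library 3 and the highest IL value in IL saline library 3, against 1.71% of all genes tested. Without both saline libraries numbered 3, 36 members were tested and the median was -0.20. Of these, 20 were lower in both regions and 3 higher, against 5090 and 5346 of the 19919 genes tested in that setting. An unadjusted p under 0.05 was found for 4 members, all lower (11.1%). Of the 19919 genes, 722 were lower at that p and 898 higher (8.13% in either direction). In the remaining pairs of one region and number, Dex was still below saline, by differences of -0.221 and -0.334 in PL and -0.167 and -0.082 in IL. The microglia markers Cx3cr1 and Csf1r were at -0.03 and 0.19, and the summed level of 20 microglia markers was 355 to 402 CPM in PL saline and 350 to 404 CPM in PL Dex. In IL it was 377 to 414 CPM with saline and 406 to 451 CPM with Dex.

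Ifit3, an antiviral effector, was at 4.25, 4.92 and 16.1 CPM in PL saline and 4.90, 2.18 and 2.98 CPM in PL Dex. In IL it was at 2.88, 2.63 and 7.26 CPM with saline and 1.07, 2.4 and 1.2 CPM with Dex. The IL groups did not overlap. Its common log2 fold change was -1.40 (SE 0.385, edgeR adjusted p 0.856), and -0.62 without both saline libraries numbered 3. Tnfsf10, the death ligand TRAIL, was at 1.82, 2.81 and 10.3 CPM in PL saline and 1.22, 0.726 and 0.949 CPM in PL Dex. The IL levels were 1.44, 1.38 and 4.64 CPM with saline and 0.356, 0.45 and 1.11 CPM with Dex. Neither region's groups overlapped, and the log2 fold change was -2.12 (SE 0.479), or -1.13 without those libraries. Ifit1 was at 30.6 CPM in PL saline library 3 and at 2.72 to 5.16 CPM in the other PL libraries. Ddx60, an antiviral helicase, was an exception. It was at 4.25, 4.33 and 4.35 CPM in PL saline and 1.22, 1.16 and 1.63 CPM in PL Dex (log2 fold change -1.68), while in IL it was at -0.26.

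Of the 29 tested members with a promoter window, 19 carry a sequence like that bound by the interferon-activated factor ISGF3. The motif GAAANNGAA, a shortened form of that element searched on both strands, was in 20 of 34 promoter windows of the list (58.8%) and in 7.08% of the 15593 windows of all tested genes. The windows of 3 members with large differences show it, with the match in capitals on the opposite strand to the motif as written.
Ifit3 (chr19:34583349-34583407, plus strand): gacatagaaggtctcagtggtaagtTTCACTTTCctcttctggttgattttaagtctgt
Rsad2 (chr12:26456538-26456596, minus strand): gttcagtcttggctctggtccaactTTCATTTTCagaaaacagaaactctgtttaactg
Ifit1 (chr19:34640755-34640813, plus strand): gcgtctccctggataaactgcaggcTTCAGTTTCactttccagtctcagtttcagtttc
Tnfsf10 is not among the genes whose window holds the motif, which says only that these letters are not in that window.

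**Figure D4:**
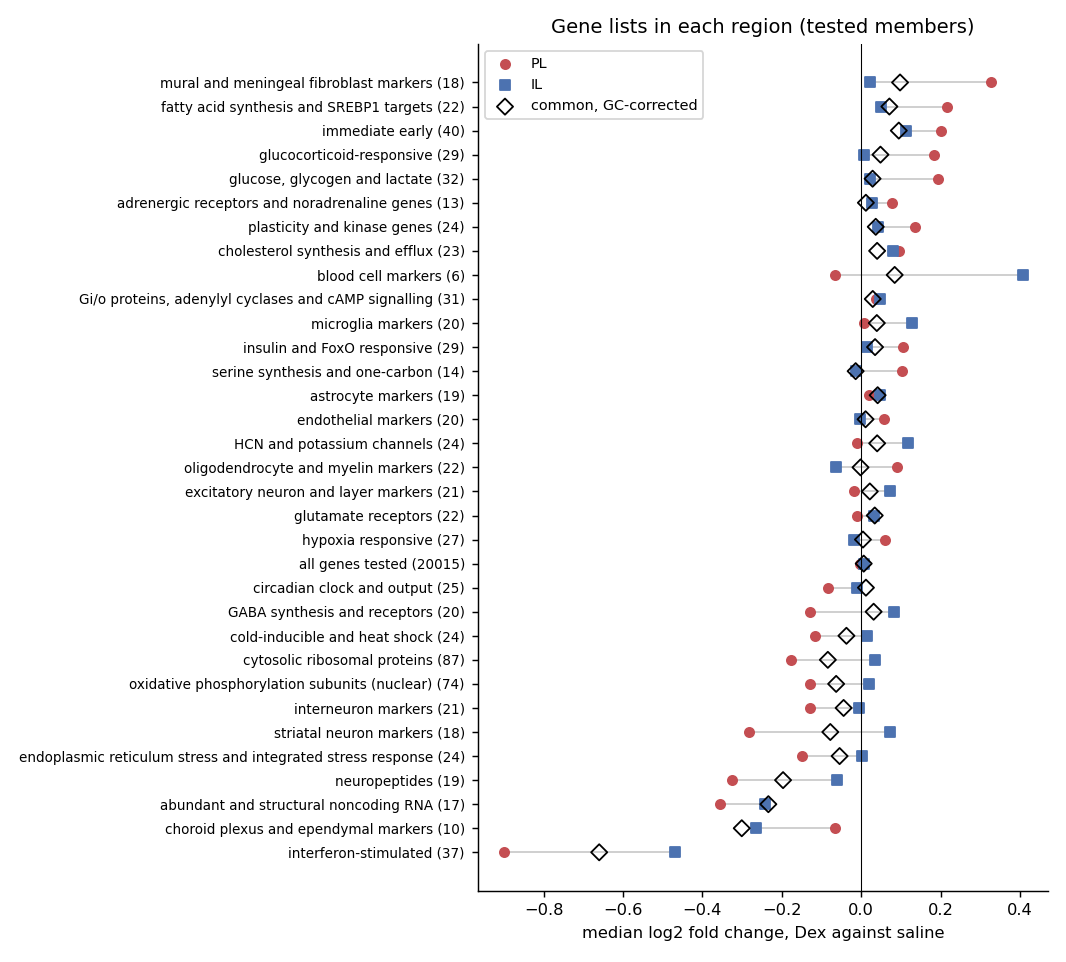
Median log2 fold change of Dex against saline (x axis) of each gene list, with the number of tested members in brackets, in PL (circles), in IL (squares) and in the common comparison after the GC correction (diamonds). Immediate early and fatty acid genes lie to the right of 0 in both regions, and structural noncoding RNAs and interferon-stimulated genes lie to the left in both.

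The astrocyte median was 0.02 in PL and 0.05 in IL, that of oligodendrocytes 0.09 and -0.06, and that of microglia 0.01 and 0.13. Of 10 tested choroid plexus and ependymal markers, 4 were lower in both regions and 0 higher, with a median of -0.28. The median was -0.07 in PL, where 5 were positive, and -0.27 in IL. Their summed level was low, at 6.78 to 16.2 CPM in PL and 24.2 to 43.6 CPM in IL. Their mean was lower with Dex in 6 of 6 pairs of one region and number, by -0.007 in PL pair 2. Of 21 interneuron markers, 9 were lower in both regions (42.9%, against 23.6% of all genes) and 3 higher, with a median of -0.07. The median was -0.13 in PL and -0.005 in IL, where 10 were positive. Without both saline libraries numbered 3, 7 were higher in both regions and 5 lower. Of 18 mural and meningeal fibroblast markers, 8 were higher in both regions and 1 lower, with a median of 0.33 in PL and 0.02 in IL. With both saline libraries numbered 3 left out, 1 was higher in both regions and 1 lower. The medians were then 0.24 in PL and -0.08 in IL.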

How the data were processed

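Raw read counts per gene were deposited as whole numbers, not normalized, together with gene coordinates and lengths. Per the file headers, featureCounts 2.0.1 counted exons by gene identifier with paired ends and without strand, on annotation release 98 of GRCm38; the submitters' processing notes also name bcl2fastq, Trim Galore, HISAT2, SAMtools 1.8 and the build mm39. Coordinates printed here are GRCm38. Of the table's count columns, 12 matched no sample and were not used. All 37 mitochondrial genes had 0 counts. For 106 symbols shared by several identifiers, the identifier with the largest total was kept.

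Genes were kept with filterByExpr on the 4 groups. Counts were scaled by TMM and fitted with edgeR 4.0.16 in R 4.3.3 (robust quasi-likelihood, region plus drug, 9 residual degrees of freedom, biological coefficient of variation 0.146). Within-region effects and the interaction came from a fit with 1 mean per group (8 degrees). P-values are two-sided with Benjamini-Hochberg adjustment over all genes tested (threshold 0.05). Levels are in CPM (TMM-scaled) and are not per length. The test was checked on simulated counts. Alternatives were RLE size factors, DESeq2 1.42.0, no and a stricter low-count filter, a block for the number, a GC correction as an offset, limma 3.58.1 voom with correlated libraries, sums of both regions, the mean of the within-region contrasts, and leaving out each library. Leaving out both libraries of one drug and number, and the interferon list, were added after seeing the data.

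The labels give each sample a batch number equal to its sample number, which pairs libraries. Deviations from group means correlated between saline and Dex libraries of one number by 0.215, 0.0137 and 0.07 in PL and by 0.435, 0.42 and 0.505 in IL (13833 genes). Between PL and IL they correlated by 0.0366 to 0.33 with saline and by -0.153 to 0.0441 with Dex.

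The comparison, gene lists and rules were chosen with earlier results of these data known. Named genes were, as no gene passed, the 8 with the smallest p in each direction and the same sign in both regions, at least 1 CPM and no predicted name; up to 4 members per list with an unadjusted p under 0.05 and the same sign in both regions; Srebf1, Phgdh and Adra2a; and up to 6 in each direction with an unadjusted p under 0.05 in both regions. Other members are named beside their list, and part of the genes so taken appear in counts only.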

Additional observations from a re-analysis of the deposited data

How the results depend on the processing

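The common comparison called 0 genes, and also 0 with RLE size factors, the stricter filter, the replicate block, the GC correction, voom, and each of the 12 libraries or 6 pairs of one drug and number left out. It called 2 with DESeq2, 27 without the low-count filter (26 with the same direction in both regions), and 1 with the GC correction and block together, with summed regions and with the mean of contrasts. The cause was not tested. The 25 genes with an unadjusted p under 0.05 in both regions became 66 without the filter, 38 with the replicate block, 44 without both saline libraries numbered 3, and 9 to 35 with 1 library left out, lowest without IL saline library 1. Without both saline libraries numbered 3, 10 of the 25 genes remained and all 25 kept their direction. The 25 were chosen with the remaining libraries included, so the kept direction was largely set by that choice and is no support. The block called no gene in the common comparison and moved no other count by over 1.5 times. In PL alone, the 4 calls became 0 with RLE or the stricter filter, 123 with DESeq2, 193 without the filter, 1 with the GC correction and 2 with the block added. They became 0 to 1484 with 1 library left out, highest without PL Dex library 3, and 2 (saline 1), 0 (saline 2), 2 (saline 3), 0 (Dex 1), 0 (Dex 2) and 1686 (Dex 3) without both libraries of one drug and number. IL went from 0 to 3 and the interaction from 0 to 4 without the filter. The interaction ran from 0 to 144 with 1 library left out and reached 410 without both Dex libraries numbered 3. Among named genes, Adra2a ran from -0.00882 to 0.276 with 1 library left out, reversed without IL Dex library 3, and was reversed without both Dex libraries numbered 3 (-0.0749). Ranges of log2 fold change without reversal included -1.21 to -0.92 for Gm25107, -2.44 to -1.13 for Tnfsf10 and 0.40 to 0.56 for Egr2. Shared differences under 0.166 on the log2 scale were within the typical 95% interval even above 100 CPM.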

Other observations

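Several stress and signalling genes outside the groups described above had the same direction in both regions at an unadjusted p under 0.05, without a call in edgeR. The corticotropin-releasing hormone gene Crh was lower, at -0.72 in PL and -0.58 in IL (common log2 fold change -0.65, SE 0.303). Among 19 tested neuropeptide genes, 10 were lower in both regions (52.6%, against 23.6% of all genes) and 4 higher (21.1%, against 25.2%). Their median was -0.15 (-0.33 in PL, -0.06 in IL), and -0.20 after the GC correction. With both saline libraries numbered 3 left out, 8 were lower in both regions and 7 higher, and the IL median was 0.04. Mt2, a metallothionein induced by glucocorticoids and metals, was at 0.759, 0.234 and 0.845 CPM in PL saline and 0.272, 0.29 and 0.136 CPM in PL Dex, where the groups overlapped. It was at 1.35, 1.25 and 1.25 CPM in IL saline and 0.178, 0.60 and 0.369 CPM in IL Dex, without overlap. Fkbp5, a glucocorticoid-induced cochaperone, was higher, at 0.35 in PL and 0.13 in IL. The cell cycle inhibitor Cdkn1a was at 0.48 and 0.21. Of the 29 tested genes of the glucocorticoid-responsive list, which holds Mt2, Fkbp5 and Cdkn1a, 12 were higher in both regions and 7 lower (median 0.10, and 0.05 after the GC correction).

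Within the endoplasmic reticulum stress list, 9 of 24 members were lower in both regions and 4 higher. Xbp1, a transcription factor of the unfolded protein response, was at -0.25 in PL and -0.17 in IL, while the calcium-binding chaperone gene Calr was at 0.19 and 0.12. The splicing kinase gene Clk1 was at -0.48 and -0.15 and the splicing factor gene Srsf5 at -0.27 and -0.13, and after the GC correction their PL values were -0.21 and -0.02. Of the metabotropic glutamate receptor genes, Grm2 was at 0.39 and 0.25 and Grm8 at -0.28 and -0.20, with PL values of 0.17 and -0.09 after the GC correction.

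The class of 1719 transcripts that the annotation lists as still to be tested by experiment was lower in both regions for 625 members (36.4%) and higher for 238 (13.8%), with a median of -0.10. After the GC correction the median was 0.01, with 431 lower in both and 424 higher.

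Other motifs were searched on both strands of the promoter windows. The E-box CACGTG was in 11.6% of windows of genes higher with Dex at an unadjusted p under 0.05, in 8.01% of those lower and in 9.15% of all. The heat shock pair GAANNTTC was in 3.3%, 6.46% and 5.98%, the FoxO motif TGTTTAC in 2.83%, 2.33% and 2.56%, and the D-box TTATGTAA in 0.708%, 0.775% and 0.661%, in the same order.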
